A study of Mus musculus with 4 samples.

Results

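The genes described here are 30 genes of cholesterol synthesis, its control, sterol transport inside the cell and sterol efflux. They were chosen by name from the known pathway, with earlier results of these data known. All 30 were found among the 20517 genes of the array table. They comprise 7 enzymes that make farnesyl diphosphate from acetyl-CoA, 11 enzymes that turn it into squalene and cholesterol, 5 genes of the SREBP system, 3 genes that move sterols inside the cell, and 4 genes of efflux and of the LXR receptors. Some other genes of these pathways are not analysed here.

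Expression was measured in 4TO7 cells, a mammary tumour line from mice of the strain BALB/cfC3H, grown in DMEM with serum. The control was a stable line with the empty retroviral vector pMSCV-puro, and the other line held pMSCV-miR-23b/27b/24, the vector with that microRNA cluster. There were 2 arrays in each group, which the series calls transfection replicates, and both lines carry the vector backbone with its puromycin resistance. Whether each line is a pool or a single clone is not stated in the sources used here, and no time after transfection is given. On every array the cells' RNA was in the Cy5 channel and Universal Mouse Reference RNA, which pools 11 mouse cell lines, in the Cy3 channel, with no dye swap. Every pair of values below is a log2 ratio of cells over that reference on each array, and a difference is the log2 fold change of miR-23b/27b/24 over vector cells with its SE.

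Cells make cholesterol from acetyl-CoA through mevalonate, farnesyl diphosphate, squalene and lanosterol. When sterols in the endoplasmic reticulum are low, the escort protein SCAP carries the transcription factors SREBP to the Golgi, where proteases release their active part, and the genes of synthesis are transcribed; when sterols are high, INSIG proteins hold SCAP back. Surplus cholesterol turns on the other arm, in which oxysterols activate the LXR receptors and these raise transcription of the exporters ABCA1 and ABCG1. Proliferating tumour cells need cholesterol for membranes, and the pathway is widely studied in breast cancer.

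The sequences of 2 microRNAs of the overexpressed cluster are printed first, because they are what was introduced into the cells, with miR-33 beside them because it lies inside Srebf2, a member, and is known to repress Abca1, another member. They are mature sequences from RefSeq in GRCm38.p6, written 5′ to 3′, with the seed (bases 2 to 8), the stretch that pairs with targets, in capitals.
mmu-miR-27b-3p: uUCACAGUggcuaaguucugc
mmu-miR-24-3p: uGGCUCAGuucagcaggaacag
mmu-miR-33-5p: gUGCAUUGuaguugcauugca
The 3 seeds differ from each other. The first lies at chr13:63300760-63300780 and the second at chr13:63301251-63301272, both on the plus strand, and miR-33 at chr15:82198127-82198147 within Srebf2 (chr15:82147269-82205379). The third microRNA of the cluster is miR-23b. Abca1 is also a published target of miR-27. The array does not measure mature microRNAs, so neither the level of the cluster nor that of miR-33 was checked here.

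Promoters of 5 members are printed because SREBP genes are classically read through a sterol regulatory element beside a CCAAT box, and these members span the response: Hsd17b7, Insig1 and Abca1 rose, Npc2 fell, and Hmgcs1, a textbook SREBP target, is the member with the sterol element letters TCACNCCAC. Each is 300 bases, from 250 before to 50 after the RefSeq start in GRCm38.p6, written 5′ to 3′ on the gene's strand. Capitals mark CCAAT on either strand (read as ATTGG on the other), the E-box CACGTG, and the sterol element core.
Hsd17b7, chr1:169969156-169969455, minus strand: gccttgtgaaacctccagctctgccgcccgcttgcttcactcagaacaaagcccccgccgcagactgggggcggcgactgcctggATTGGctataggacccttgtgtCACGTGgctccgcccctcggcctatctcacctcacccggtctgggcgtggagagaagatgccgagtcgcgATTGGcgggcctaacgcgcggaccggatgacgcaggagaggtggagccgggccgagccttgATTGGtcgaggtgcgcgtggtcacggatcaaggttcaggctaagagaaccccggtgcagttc
Insig1, chr5:28071162-28071461, plus strand: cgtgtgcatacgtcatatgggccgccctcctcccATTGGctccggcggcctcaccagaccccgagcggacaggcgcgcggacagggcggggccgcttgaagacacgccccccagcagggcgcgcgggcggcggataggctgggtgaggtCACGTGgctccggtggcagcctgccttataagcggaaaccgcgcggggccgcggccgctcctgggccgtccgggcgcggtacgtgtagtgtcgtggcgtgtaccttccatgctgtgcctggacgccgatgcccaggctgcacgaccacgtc
Abca1, chr4:53159846-53160145, minus strand: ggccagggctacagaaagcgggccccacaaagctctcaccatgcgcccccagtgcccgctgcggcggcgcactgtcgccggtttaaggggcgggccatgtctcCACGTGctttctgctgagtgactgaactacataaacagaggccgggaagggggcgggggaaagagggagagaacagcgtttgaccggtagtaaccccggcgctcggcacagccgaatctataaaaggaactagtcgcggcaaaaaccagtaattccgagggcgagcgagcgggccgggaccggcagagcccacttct
Npc2, chr12:84773063-84773362, minus strand: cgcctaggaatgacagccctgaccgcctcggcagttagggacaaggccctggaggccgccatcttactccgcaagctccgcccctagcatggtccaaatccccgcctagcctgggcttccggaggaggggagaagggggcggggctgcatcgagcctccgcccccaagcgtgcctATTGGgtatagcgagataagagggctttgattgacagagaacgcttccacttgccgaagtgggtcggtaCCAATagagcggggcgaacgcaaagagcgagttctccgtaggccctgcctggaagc
Hmgcs1, chr13:119690101-119690400, plus strand: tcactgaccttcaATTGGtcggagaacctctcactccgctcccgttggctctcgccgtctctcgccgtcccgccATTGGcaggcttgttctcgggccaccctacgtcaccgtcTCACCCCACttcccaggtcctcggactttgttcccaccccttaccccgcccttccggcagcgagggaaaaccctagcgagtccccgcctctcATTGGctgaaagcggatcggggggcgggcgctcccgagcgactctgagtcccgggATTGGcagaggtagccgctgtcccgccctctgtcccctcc
RefSeq promoter windows were matched for 24 of the 30 members; those of Abcg1, Fdft1, Fdps, Npc1, Sqle and Stard4 were not. Searched on both strands, CCAAT was present in the promoters of 19 of the 24 members (79.2%) and of 42.3% of the 12799 tested genes with a promoter. The GC box GGGCGG, known to bind Sp1, was present in 21 of 24 (87.5%) against 59.7%, and CACGTG, which SREBP proteins and other factors can bind, in 6 of 24 (25%) against 10.5%. Those 6 were Abca1, Dhcr7, Hsd17b7, Insig1, Sc5d and Scap, of which 3 rose and 3 did not pass the test. The sterol element core TCACNCCAC was found in Hmgcs1 alone, against 1.47% of tested genes, and the shorter CACCCCAC, which can overlap it, in Acat2 and Hmgcs1, against 3.63%. These matches describe letters in a short window and were not tested.

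Of the 30 sterol genes, 6 differed between the lines. Abca1, the exporter of cholesterol to lipid-poor apolipoprotein, was 3.93-fold higher in miR-23b/27b/24 cells, Hsd17b7, a ketosteroid reductase of late cholesterol synthesis, 3.66-fold, Sqle, the squalene epoxidase that commits squalene to sterols, 2.53-fold, and Insig1, the sterol-sensing brake of SREBP processing, 2.27-fold. Abcg1, the exporter to high-density lipoprotein, was 2.18-fold lower, and Npc2, the lysosomal carrier of cholesterol, 1.97-fold lower. The test was limma's moderated test with Benjamini-Hochberg adjustment over all genes at 0.05 (SE and 95% interval below; n = 2 arrays per group). Over the whole array 9.43% of 20515 genes passed it, 4.78% higher and 4.66% lower, while 20% of the members did, 4 higher and 2 lower. The median log2 difference was 0.26 over the 30 members and -0.03 over all genes, and 20 members had a positive difference, against 45.8% of all genes. As the members were chosen with earlier results of these data known, these shares and medians describe the list and do not test it. Both arrays of one line lay beyond both arrays of the other for 17 of 30 members (14 higher and 3 lower), close to the 59.7% of all genes (27.4% higher and 32.3% lower), so that count is not a result about the members.

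**Figure D1:**
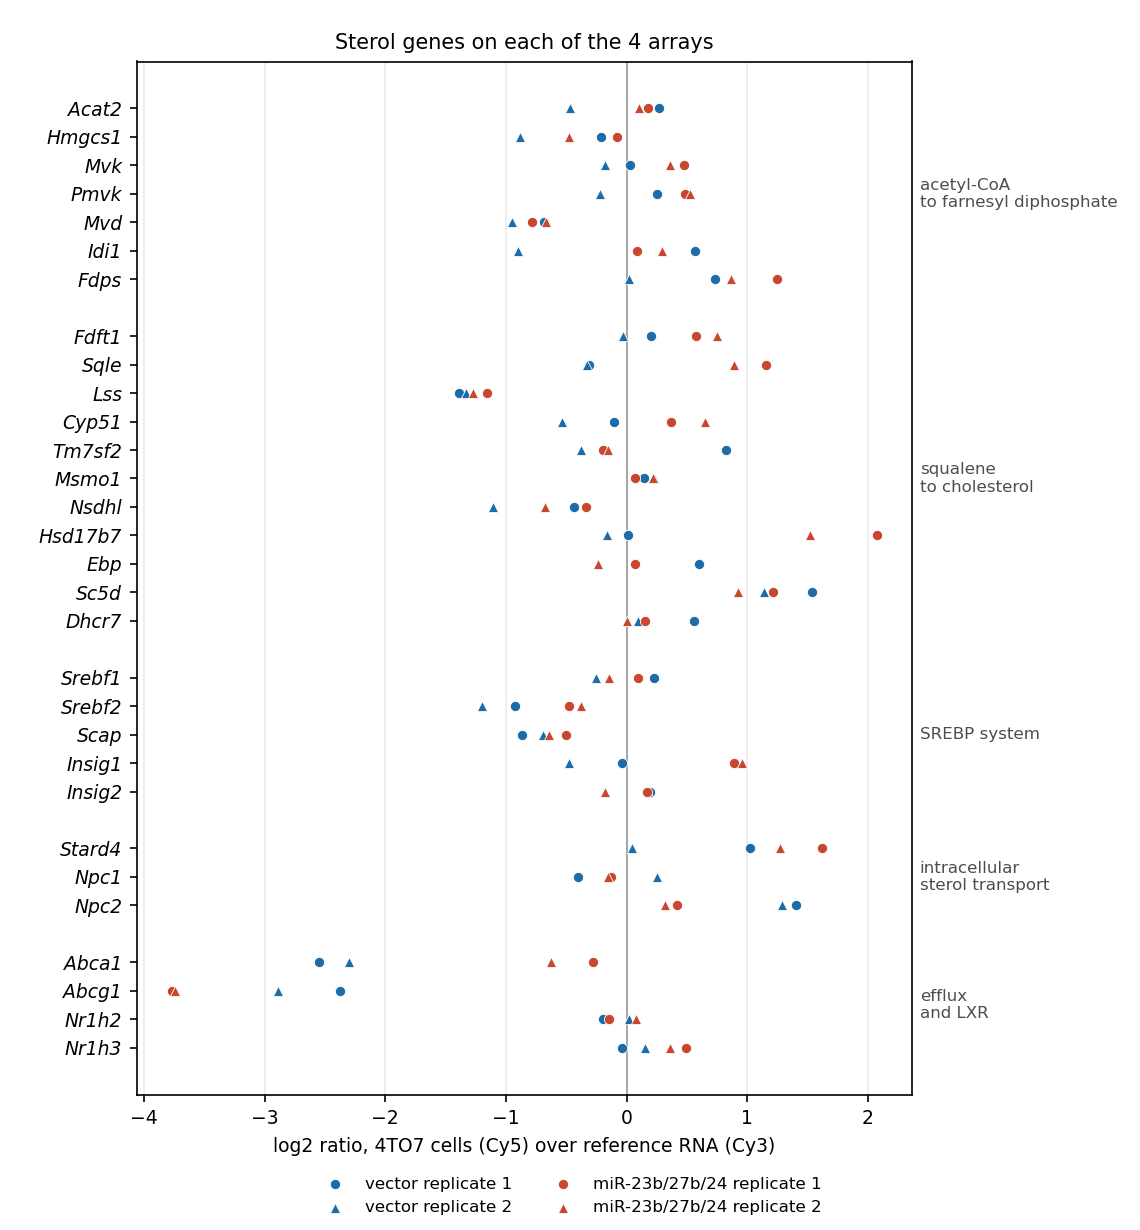
Log2 ratio of 4TO7 cells over reference RNA (x axis) for each of the 30 genes (rows, grouped by role) on the 2 vector arrays (blue) and the 2 miR-23b/27b/24 arrays (red); circles are replicate 1 and triangles replicate 2. Abca1, Hsd17b7, Sqle, Insig1 and Npc2 show wide gaps between the colours, while Idi1 and Tm7sf2 have the vector arrays far apart.

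**Figure D2:**
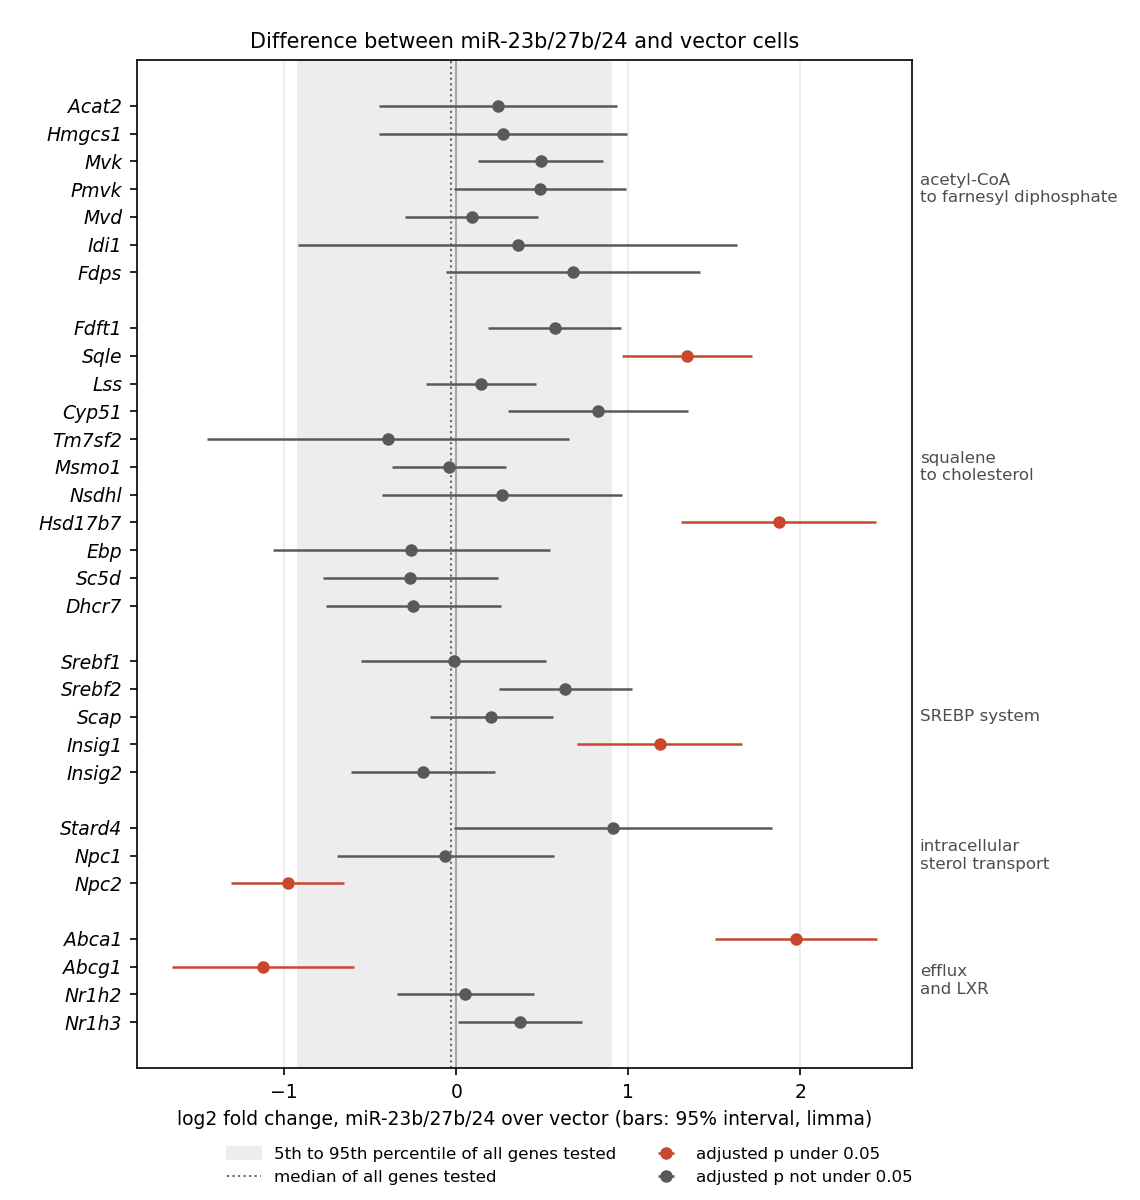
Log2 fold change of miR-23b/27b/24 over vector cells (x axis) with its 95% interval from limma for the 30 genes; red points passed an adjusted p of 0.05 and the others did not. The shaded band runs from the 5th to the 95th percentile of all genes tested (-0.92 to 0.90) and the dotted line is their median (-0.03). All 6 genes that passed lie beyond the band, as does Stard4 (0.91), which did not pass.

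Signals of all 30 members were well above background in Cy5 and in Cy3 on each of the 4 arrays, and none was saturated. Across the array, 69.9% to 74.8% of 41174 probes were well above background in Cy5. Pearson's r across genes, which are not independent replicates, was 0.887 for the pair of vector arrays, 0.952 for the other pair and 0.629 to 0.725 across groups. All arrays lay on 1 slide read in 1 scan. As these are bulk RNA measurements, fewer cells of a kind and less RNA per cell cannot be told apart, and the number of arrays limits every value. The p-values measure the spread between the 2 arrays of a group.

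No enzyme of the early steps, from acetyl-CoA to farnesyl diphosphate, passed the test, though all 7 had a positive difference, with a median of 0.36. Acat2, which joins acetyl-CoA units, read 0.27 and -0.47 in vector cells and 0.18 and 0.10 in miR-23b/27b/24 cells, a difference of 0.24 ± 0.27 (adjusted p = 0.616). Hmgcs1, which makes HMG-CoA, had -0.21 and -0.88 against -0.08 and -0.48, a difference of 0.27 ± 0.28 (adjusted p = 0.591). For both genes the higher vector array lay among or above the miR-23b/27b/24 arrays, and the groups overlapped. Mevalonate kinase Mvk had 0.03 and -0.18 against 0.48 and 0.36, a difference of 0.49 ± 0.14 (95% interval 0.13 to 0.85, adjusted p = 0.0986), and phosphomevalonate kinase Pmvk had 0.25 and -0.22 against 0.49 and 0.52, a difference of 0.49 ± 0.19 (adjusted p = 0.188). These kinases act in sequence, and in each the miR-23b/27b/24 arrays were both above the vector arrays, as in 27.4% of all genes. The decarboxylase gene Mvd, the next step, had -0.68 and -0.95 against -0.79 and -0.67 (difference 0.09 ± 0.15).

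Idi1, the isomerase of the isoprenoid building blocks, had the widest gap between vector arrays of any member, 0.57 and -0.90, around values of 0.09 and 0.29 in miR-23b/27b/24 cells; its difference was 0.36 with an SE of 0.49. The files place both Idi1 probes on chromosome 2 in mm7, while RefSeq places the gene elsewhere, and whether they also read a second copy was not tested. Fdps, which makes farnesyl diphosphate, had 0.73 and 0.02 against 1.25 and 0.86, without overlap, and a difference of 0.68 ± 0.28 (adjusted p = 0.210). In all 7 early genes vector replicate 1 was above vector replicate 2, by a median of 0.67. Without vector replicate 1 the differences were 1.09 for Idi1, 1.03 for Fdps, 0.72 for Pmvk, 0.61 for Acat2 and Hmgcs1, 0.60 for Mvk and 0.22 for Mvd. Without vector replicate 2, Idi1 stood at -0.38, Acat2 at -0.13, Hmgcs1 at -0.07 and Mvd at -0.04. Mvk, Fdps and Pmvk stayed positive there, at 0.39, 0.32 and 0.25.

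Of the 11 enzymes from farnesyl diphosphate to cholesterol, 2 rose, 0 fell and 9 did not pass, with 6 positive and 5 negative differences and a median of 0.14. Over the whole array 4.78% of genes rose and 4.66% fell, and counts in lists this small are not results about a role. Hsd17b7 reduces the keto group that is left when methyl groups are removed from the sterol ring, and is also known to convert estrone to estradiol. It read 0.01 and -0.16 in vector cells and 2.07 and 1.52 in miR-23b/27b/24 cells, a rise of 1.87 ± 0.22 (95% interval 1.30 to 2.44, adjusted p = 0.0156), and its other probe rose by 1.41. Both vector arrays were near the level of the reference and both miR-23b/27b/24 arrays far above it. Sqle had -0.31 and -0.33 against 1.16 and 0.89, a rise of 1.34 ± 0.15 (95% interval 0.96 to 1.72, adjusted p = 0.0131). The vector arrays of Sqle differed by 0.02. The probes of these genes lie at chr1:169928936-169928995 (Hsd17b7) and chr15:59397289-59397348 (Sqle) in the mm7 coordinates of the files. Without miR-23b/27b/24 replicate 1 neither passed (adjusted p = 0.106 for Sqle and 0.0722 for Hsd17b7), and without replicate 2 of that group Hsd17b7 alone did (adjusted p = 0.0462, against 0.0699 for Sqle).

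Fdft1, which acts just before Sqle, and Cyp51, which acts after Sqle and Lss, had positive differences that did not pass. Squalene synthase Fdft1 had 0.21 and -0.03 against 0.58 and 0.75, a difference of 0.57 ± 0.15 (95% interval 0.19 to 0.96, adjusted p = 0.0816), but only 0.07 by its other probe. The lanosterol demethylase Cyp51 had -0.10 and -0.53 against 0.37 and 0.65, a difference of 0.82 ± 0.20 (95% interval 0.30 to 1.35, adjusted p = 0.0736), with 0.82 and 0.99 by its other probes. Neither gene's groups overlapped, as in 27.4% of all genes in this direction. With an array left out Fdft1 ran from 0.46 to 0.69 and Cyp51 from 0.61 to 1.04. Lss, which closes squalene epoxide to lanosterol, had -1.39 and -1.33 against -1.16 and -1.27, a difference of 0.14 ± 0.12 (adjusted p = 0.512) by its brightest probe. Its other probes, made for the RefSeq transcript of Lss where the brightest was made for a cDNA clone, gave 0.91 (adjusted p = 0.0364 in a fit of all probes) and 0.63 (adjusted p = 0.0484). The probe at 0.91 had -0.64 and -0.70 against 0.41 and 0.06, so the call of this gene depends on the probe that represents it.

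None of the other 6 genes that act after lanosterol passed, and 5 of them had a negative difference, the exception being Nsdhl. Msmo1, the methyl sterol oxidase listed in the files as Sc4mol, had 0.14 and 0.23 against 0.07 and 0.22, a difference of -0.04 ± 0.13, and its 95% interval of -0.38 to 0.29 leaves out changes as large as that of Hsd17b7, which acts in the same demethylation complex. Nsdhl, the dehydrogenase between those steps, had -0.43 and -1.11 against -0.33 and -0.68 (difference 0.27 ± 0.27). So within the same complex only Hsd17b7 passed; the differences between these genes were not themselves tested. The sterol reductase Tm7sf2 had 0.83 and -0.38 on the vector arrays around -0.19 and -0.16 on the others, a difference of -0.40 ± 0.40, which became 0.20 without vector replicate 1 and -1.0 (adjusted p = 0.0161) without vector replicate 2. The isomerase Ebp had 0.60 and -0.24 against 0.07 and -0.24 (difference -0.26 ± 0.31). The desaturase Sc5d had 1.53 and 1.13 against 1.21 and 0.93 (-0.27 ± 0.20), and Dhcr7, a reductase of the last steps, 0.56 and 0.09 against 0.15 and 0.00 (-0.25 ± 0.20). In Tm7sf2, Ebp, Sc5d and Dhcr7 the highest of the 4 arrays was vector replicate 1, and none of the 4 genes passed.

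In the SREBP system, 1 of 5 genes rose, 0 fell and 4 did not pass, a small count beside the 4.78% of all genes that rose. Insig1, itself a direct SREBP target as well as a brake, read -0.04 and -0.48 in vector cells and 0.89 and 0.95 in miR-23b/27b/24 cells, a rise of 1.18 ± 0.19 (95% interval 0.70 to 1.66, adjusted p = 0.0296), and its other probe rose by 1.03. The miR-23b/27b/24 arrays lay close together and well above both vector arrays. Its probe lies at chr5:27110161-27110220 in mm7. Insig1 had adjusted p = 0.181 and 0.161 without replicate 1 and 2 of the miR-23b/27b/24 group, and 1.13 (adjusted p = 0.0601) with every local background as measured. Insig2, its paralog, which SREBP does not induce in the same way, had 0.20 and 0.17 against 0.17 and -0.18, a difference of -0.19 ± 0.16 (95% interval -0.61 to 0.23). The intervals of Insig1 and Insig2 do not meet.

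Srebf2, which encodes the SREBP most tied to cholesterol synthesis, had -0.93 and -1.20 against -0.48 and -0.38, a difference of 0.63 ± 0.15 (95% interval 0.25 to 1.02, adjusted p = 0.0680). With an array left out its difference ran from 0.50 to 0.77, the highest without vector replicate 1. Its other 3 probes gave 0.14, 0.19 and 0.37, all smaller. Srebf1, whose products also drive fatty acid synthesis, had 0.22 and -0.25 against 0.09 and -0.15 (difference -0.02 ± 0.21), and Scap had -0.86 and -0.69 against -0.50 and -0.65 (0.20 ± 0.14). The arrays of Srebf1 interleaved, and those of Scap did not overlap.

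Of the 3 genes of sterol transport inside the cell, Npc2 fell and the others did not pass. Npc2 hands cholesterol freed in the lysosome to the membrane protein NPC1. It read 1.40 and 1.29 in vector cells and 0.42 and 0.32 in miR-23b/27b/24 cells, and fell by 0.98 ± 0.13 (95% interval -1.31 to -0.65, adjusted p = 0.0193). All 4 arrays were above the reference and the pairs were tight. Its single probe lies at chr12:82757293-82757352 in mm7; its adjusted p was 0.146 and 0.144 without replicate 1 and 2 of the miR-23b/27b/24 group and 0.0636 with median centring in place of loess. Npc1, its partner, had -0.41 and 0.26 against -0.13 and -0.15 (difference -0.06 ± 0.24, 95% interval -0.69 to 0.57), the only one of the 3 with vector replicate 2 on top. Stard4, a soluble sterol carrier and SREBP target, had 1.02 and 0.04 against 1.62 and 1.27, a difference of 0.91 ± 0.36 (95% interval -0.01 to 1.84, adjusted p = 0.184), with 0.92 and 1.05 by its other probes. With an array left out the difference of Stard4 ran from 0.42 to 1.40, the highest without vector replicate 1.

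The exporters moved in opposite directions. Abca1 read -2.55 and -2.30 in vector cells and -0.28 and -0.63 in miR-23b/27b/24 cells, a rise of 1.97 ± 0.18 (95% interval 1.5 to 2.44, adjusted p = 0.00877). It thus went from far below the reference to near it. Abcg1 had -2.37 and -2.89 against -3.77 and -3.74, and fell by 1.12 ± 0.20 (95% interval -1.65 to -0.60, adjusted p = 0.0395), from a level already below the reference. Each is read by a single probe, at chr4:53044891-53044950 for Abca1 and chr17:29310847-29310906 for Abcg1 in mm7. The LXR genes did not pass: Nr1h3 (LXR alpha) had -0.04 and 0.15 against 0.50 and 0.36, a difference of 0.37 ± 0.14 (adjusted p = 0.171), and Nr1h2 (LXR beta) -0.19 and 0.02 against -0.14 and 0.08 (0.05 ± 0.15). Without replicate 1 and 2 of the miR-23b/27b/24 group the adjusted p was 0.0674 and 0.0511 for Abca1 and 0.229 and 0.178 for Abcg1. With every local background as measured neither passed, at 1.29 (adjusted p = 0.103) and -1.72 (adjusted p = 0.117); Abcg1 stood at -1.76 with Feature Extraction signals and loess and at -1.06 (adjusted p = 0.0686) with median centring.

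The reference channel differed little between the groups for the 6 genes that passed. The Cy3 log2 signal of the miR-23b/27b/24 arrays minus that of the vector arrays was 0.04 for Abca1, -0.04 for Abcg1, 0.01 for Npc2, -0.03 for Insig1, -0.03 for Hsd17b7 and -0.07 for Sqle. The Cy5 signal alone differed by 2.01, -1.16, -0.97, 1.15, 1.84 and 1.27 for the same genes, so the differences were those of the cells' channel.

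The vector arrays were further apart than the miR-23b/27b/24 arrays, and more so for the synthesis enzymes than over the array. Vector replicate 1 was above vector replicate 2 for 16 of the 18 enzymes, by a median of 0.45, against 51.6% of genes and a median of 0.01 over all genes. Between the miR-23b/27b/24 arrays the median for the enzymes was 0.11. The widest gaps were those of Idi1 (1.47), Tm7sf2 (1.2), Stard4 (0.98) and Ebp (0.84), while Sqle, Npc2 and Hsd17b7 differed by 0.02, 0.12 and 0.17. Genes of proliferation, a list of 15 measured replication and mitosis genes, differed in the same way: all 14 with a value on both vector arrays were higher on vector replicate 1, by a median of 1.00, against 0.23 between the miR-23b/27b/24 arrays. The remaining gene had no value on vector replicate 1, which the fit left out. Of the 15 genes 4 rose and 0 fell between the groups, against 4.78% and 4.66% of all genes. All 15 had positive differences (median 1.23), led by Ccne1 (2.01), Pcna (1.95) and Cdc6 (1.81). Without miR-23b/27b/24 replicate 1 none of these 3 passed (1.75, 1.86 and 1.54), and without replicate 2 of that group Ccne1 alone did (2.26). The part of proliferation in the sterol gene differences was not tested.

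**Figure D3:**
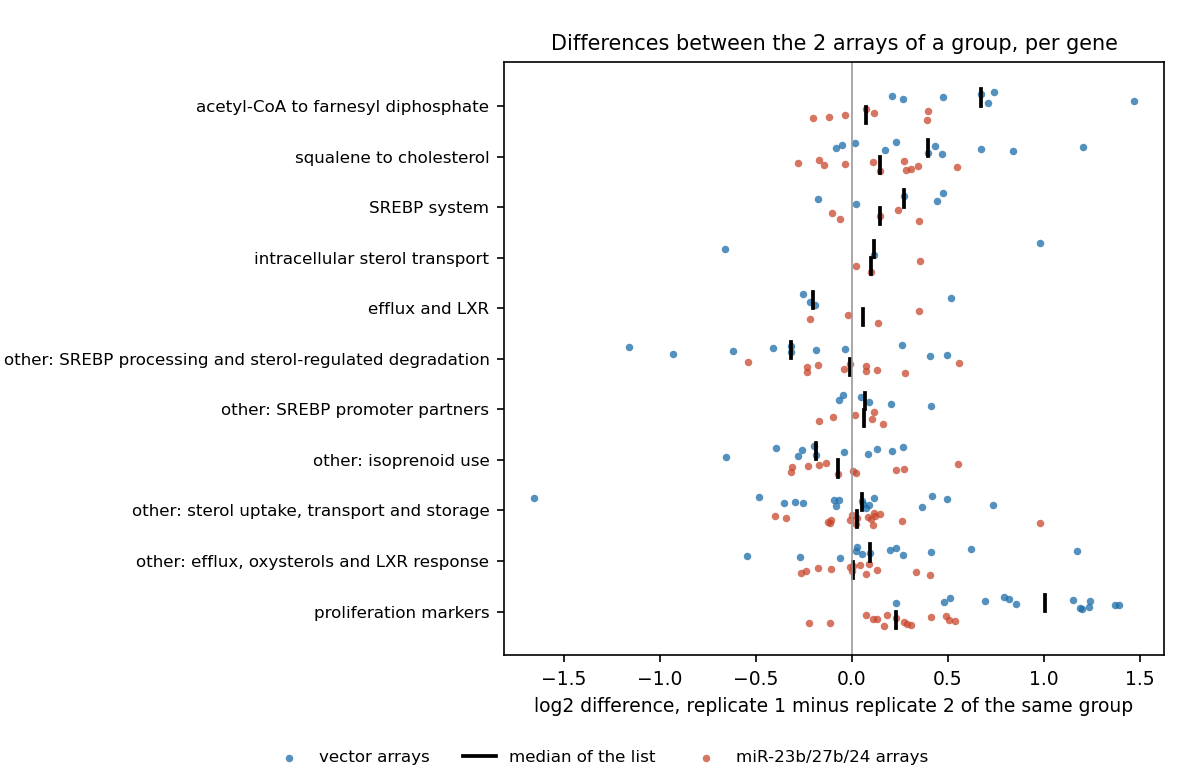
Log2 difference between replicate 1 and replicate 2 of the same group (x axis), 1 point per gene, for the vector arrays (blue) and the miR-23b/27b/24 arrays (red) in each gene list; black bars are medians. The vector medians of the early (0.67) and late (0.40) synthesis enzymes and of proliferation markers (1.00) lie to the right of 0, while no miR-23b/27b/24 median exceeds 0.23.

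**Figure D4:**
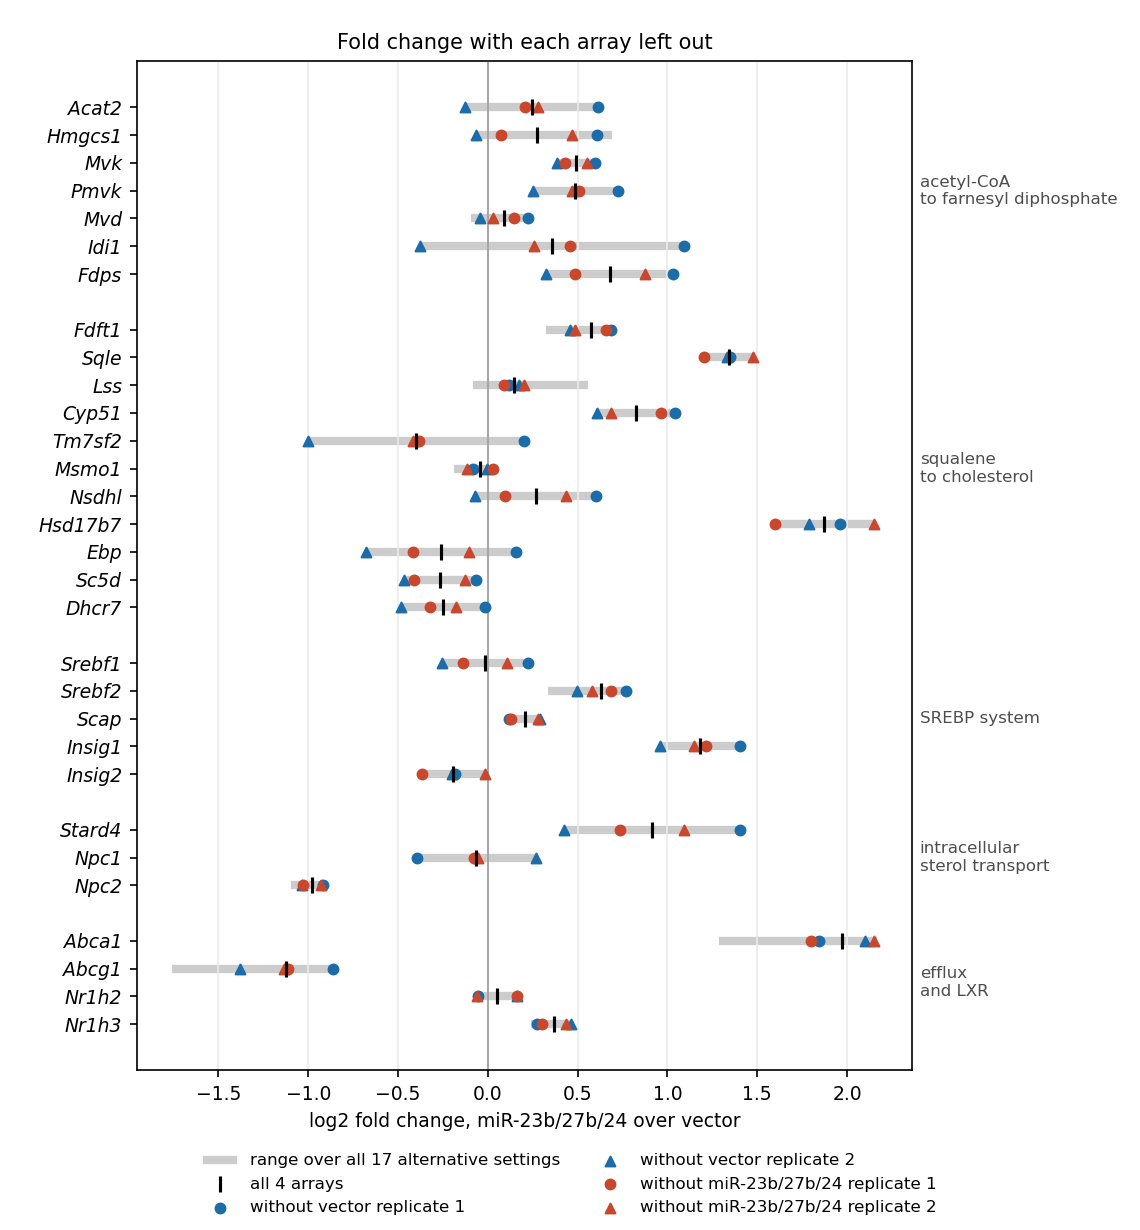
Log2 fold change of each of the 30 genes (x axis) with all 4 arrays and with each array left out, over a grey bar for the range across the 17 alternative settings. The 6 genes that passed stay on their side of 0 in every setting. Their vector arrays both lay on the same side of both other arrays, so no omitted array could turn their sign. Idi1 runs from -0.38 to 1.09 and Tm7sf2 from -1.0 to 0.20, depending on the vector array left out.

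Leaving out arrays moved the count of members that passed. It was 15 without vector replicate 1 (13 higher and 2 lower), 7 without vector replicate 2, 0 without miR-23b/27b/24 replicate 1 and 1, Hsd17b7, without miR-23b/27b/24 replicate 2. The count over the whole array moved too, from 1935 to 4588, 2727, 222 and 240 in that order. With every local background as measured 3 members passed, Hsd17b7, Npc2 and Sqle, of 635 genes over the array.

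Of the 30 members, 17 are read by more than 1 probe. The other probes that were measured numbered 23, of which 22 had the sign of the brightest probe; the exception was Dhcr7, at 0.05 against -0.25. Sizes differed more than signs. For Hmgcs1 the brightest probe gave 0.27 and the others 0.40 and 1.41, the last from a probe designed on a cDNA clone, with -1.18 and -1.33 on the vector arrays against 0.56 and -0.25 (adjusted p = 0.0464 in the fit of all probes). For Fdps the other probe gave 1.34 against 0.68. Of the 6 members that passed, Hsd17b7 and Insig1 have another probe, which also passed in that fit, and Sqle, Npc2, Abca1 and Abcg1 have a single probe.

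A further 60 genes around the pathway were read from lists, and 58 were measured. Of these, 2 rose and 3 fell, with a median difference of -0.05. The share that passed, 8.62%, was close to the 9.43% of all genes, so that count is not a result about these genes. None of the 11 genes of SREBP processing and sterol-regulated degradation passed limma's test, and 4 of the 11 had an unadjusted p under 0.05, against 27.7% of all genes, among them Mbtps2, a protease that releases SREBP (0.73, adjusted p = 0.130). Among 6 genes of factors that bind beside SREBP, subunits of the CCAAT-binding factor NF-Y moved in opposite directions: Nfyc rose by 0.70 (adjusted p = 0.0373) and Nfyb fell by 0.68 (adjusted p = 0.0357). Of 11 measured genes of isoprenoid use, Ggps1, which extends farnesyl to geranylgeranyl diphosphate, fell by 0.85 (adjusted p = 0.0323) and 0 rose. None of 17 genes of sterol uptake, transport and storage passed (7 at an unadjusted p under 0.05, read against the same 27.7%). The smallest p-values were those of Lbr, a nuclear envelope protein with sterol reductase activity (0.76, adjusted p = 0.0584), and of the lipoprotein receptor gene Lrp1 (-0.58, adjusted p = 0.0608). Over the 17 alternatives Lbr ran from 0.57 to 0.94. Nfyc, Nfyb and Ggps1 kept their direction in all 17 alternatives but not their calls. None of the 3 passed with local backgrounds as measured, with the Feature Extraction log ratio, in the authors' values, with median centring, or without either of the miR-23b/27b/24 arrays, where the adjusted p was 0.227 and 0.218 for Nfyc, 0.246 and 0.206 for Nfyb, and 0.233 and 0.156 for Ggps1.

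In the list of efflux, oxysterols and LXR response, 1 of 13 measured genes rose and 1 fell, against 4.78% and 4.66% of all genes. Pltp, the phospholipid transfer protein and an LXR target like Abca1, read -1.08 and -1.17 in vector cells and 0.81 and 1.05 in miR-23b/27b/24 cells, a rise of 2.05 ± 0.14 (adjusted p = 0.00505). Cyp7b1, a hydroxylase of oxysterols, had 2.86 and 2.84 against 1.99 and 2.17, and fell by 0.77 ± 0.13 (adjusted p = 0.0343), but its direction depended on the background step. Its reference signal was well above background on only 2 of the 4 arrays, and the difference was 0.78 with local backgrounds as measured, 0.85 with the Feature Extraction log ratio and in the authors' values, and 0.95 with loess on Feature Extraction signals, none of them past the threshold. Without replicate 1 and 2 of the miR-23b/27b/24 group its adjusted p was 0.250 and 0.154, while Pltp passed in 16 of the 17 alternatives and had 1.51 (adjusted p = 0.0753) with backgrounds as measured. Among genes that passed, the known LXR targets Abca1 and Pltp thus rose and Abcg1 fell. Abcg1 was read at low Cy5 log2 signals of 7.13 and 7.15 in miR-23b/27b/24 cells. The part of LXR was not tested. The difference of Pltp was 2.10 and 2.01 without vector replicate 1 and 2. It was 2.17 and 1.93 without replicate 1 and 2 of the miR-23b/27b/24 group. With local backgrounds as measured 1 of these 60 genes passed, which was none of the 5 genes that passed otherwise.

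The identity of the cells was read from marker lists. Epithelial markers, which a mammary tumour line should express, were present. In miR-23b/27b/24 cells 4 of 6 fell and 0 rose: Krt7 (-4.49), Krt19 (-4.03), Epcam (-3.61) and Cdh1 (-2.95). Over the whole array 4.66% of genes fell and 4.78% rose, shares to read beside the counts of each marker list. For Krt7 and Cdh1 the reference channel differed too, so the sizes of these ratios are not those of the cells' channel alone. The Cy3 log2 signal of Krt7 was 13.07 and 12.74 on the vector arrays against 10.59 and 10.57. That of Cdh1 was 8.40 and 8.30 against 6.75 and 6.82. Krt19 missed the threshold without miR-23b/27b/24 replicate 1 (-3.84, adjusted p = 0.0551), and Cdh1 with backgrounds as measured (-2.17, adjusted p = 0.138). Krt8 had a difference of 0.30 and Krt18 of -1.40, neither past the threshold; without vector replicate 1 Krt8 passed (0.75, adjusted p = 0.0227), and without vector replicate 2 Krt18 did (-1.76, adjusted p = 0.0216). Of 5 measured macrophage and leukocyte markers 1 fell, Cd68, a lysosomal protein (-1.68; adjusted p = 0.0584 and 0.0663 without replicate 1 and 2 of the miR-23b/27b/24 group), and Ptprc was between -5.82 and -5.72 on all arrays. Of 6 fibroblast markers, 3 endothelial and 4 adipocyte markers measured, 0 passed. At an unadjusted p under 0.05 there were 2, 0 and 0, against 27.7% of all genes. The fibroblast list ran from Col1a1, between -4.71 and -4.19 on all arrays, to Pdgfra, at -1.97 and -3.00 in vector cells and -1.15 and -1.35 in miR-23b/27b/24 cells (difference 1.23, adjusted p = 0.101). The Cy5 log2 signal of Col1a1 was 11.09 to 11.65, well above background on every array, beside 15.77 to 15.84 in the reference. Its low ratio therefore does not show absence from the cells. The endothelial and adipocyte markers lay between -0.85 and 0.50 apart from Fabp4, which had 1.61 and -0.92 in vector cells and -0.19 and 0.43 in miR-23b/27b/24 cells. Apart from Fabp4 their Cy5 log2 signals were low, at most 7.09 (Tek, vector replicate 2). Cidec had 6.55 and 6.57 in miR-23b/27b/24 cells, neither well above background. Ratios near 0 at such signals do not show expression at the level of the reference. These marker genes were chosen for naming after their values were seen. The part of these differences in those of the sterol genes was not tested.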

How the data were processed

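Total RNA of 4 cell samples was read against a common reference on 2-colour arrays. The deposited scanner output holds mean signals, local backgrounds and processed signals as intensity, and the log10 ratio of Cy5 to Cy3, made per the file headers by Agilent Feature Extraction 9.5.3.1. The authors' value table is in log2: 87.5% to 88.0% of its entries were within 0.001 of the scanner's log ratio, Cy5 to Cy3, centred per probe (column medians 0.0133, -0.0172, 0.0221 and -0.0149). In R 4.3.3 with limma 3.58.1, local backgrounds marked as outliers (1782 to 1976 spots per array in Cy5) were replaced by the array median, a choice made in earlier work after results had been seen. Normexp (offset 50) and loess followed, with weight 0 for control spots and outlier spots left out. Of 41174 probes, 22951 were named through RefSeq (GRCm38.p6) accessions, 6659 through symbols and 3109 through synonyms, and 8455 kept the file's name. The filter kept 30080 probes with Cy5 well above background on both arrays of a group, and the brightest probe represented a gene. Genes were compared with limma's lmFit and eBayes (degrees of freedom: 2 residual, 2.83 prior), adjusted over all genes. All members are named; from other lists, each gene that passed or the 2 of smallest p, and up to 3 proliferation genes; a gene that this rule names is not reported here. The members and lists were chosen with earlier results of these data known. Simulated data were used to test the scripts.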

Additional observations from a re-analysis of the deposited data

How the results depend on the processing

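The 17 alternatives, which were applied to named genes outside the members only after seeing the data, cover background, signals, scaling, filter, probe rule, moderation, the replicate block and each array left out. The 6 members that passed kept their direction in all 17, and the same 6 passed in 11 of the 13 that use all arrays. Only 3 did with local backgrounds left as measured, and only 4 with median centring. Some of these directions could not have turned. The filter changes, trend and robust moderation and the replicate block left the members' median at 0.2553, as in the main fit. The authors' table and the log ratio gave the same median, 0.25889. Each of the 6 had both vector arrays on the same side of both other arrays, so no omitted array could turn its sign. The 17 are therefore not separate checks. Leave-one-out gave 0 to 15 members, 222 to 4588 genes of the array and 1 to 14 of the other sterol genes. The members' median was 0.16 to 0.44 when an array was left out. With backgrounds as measured the array count was 635, and with median centring 1263. The other sterol genes that passed numbered 1 with backgrounds as measured, the Feature Extraction log ratio, the authors' table or median centring, 2 with loess on Feature Extraction signals, and 3 with trend and robust moderation. With the replicate block, 1762 genes, 6 members and 3 other sterol genes passed; the same-number deviations correlated at 0.05, so the numbers were not taken to pair samples. Where a group keeps a single array, its spread is taken from the other group. Of 510 alternative values of members, 17 turned sign, in 12 members that did not pass. With an array left out, the lowest and highest values were -0.13 and 0.61 for Acat2, -0.066 and 0.61 for Hmgcs1, -0.044 and 0.22 for Mvd, -0.38 and 1.09 for Idi1, -1.0 and 0.20 for Tm7sf2, -0.12 and 0.030 for Msmo1, -0.070 and 0.60 for Nsdhl, -0.68 and 0.16 for Ebp, -0.25 and 0.22 for Srebf1, -0.40 and 0.27 for Npc1, and -0.058 and 0.16 for Nr1h2. Under the other settings Mvd stood at -0.093 and Lss at -0.080 with backgrounds as measured, Mvd at -0.0014 in Cy5 alone and Npc1 at 0.018 with median centring. Outside the members, Cyp7b1 turned to 0.78 with backgrounds as measured, 0.85 with the log ratio or the authors' table and 0.95 with loess on Feature Extraction signals, and could not be fitted under the strict filter; Krt8 ran from -0.16 to 0.75 with an array left out. The cause of these changes was not tested. All members were well above background, but their calls still moved with the background step. With backgrounds as measured Abca1, Abcg1 and Insig1 did not pass. Abcg1 had low Cy5 log2 signals, 7.13 and 7.15, in the cells with the microRNA cluster. Whether signal over background limited these calls was not tested.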
